A study of Mus musculus with 48 samples.

Results

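The change from growth medium to differentiation medium was followed over its first hour in C2C12 cells, an established mouse line of muscle precursor cells (myoblasts) that stops dividing and forms multinucleate myotubes in medium poor in serum. The comparison set the 3 arrays of cells taken after 1 h in differentiation medium against the 3 arrays of cells taken at 0 h, which is 6 of the 48 arrays of the series. The 0 h cells were untreated and stood in growth medium with 20% fetal bovine serum. The 1 h cells were untreated too and had been moved to medium with 2% horse serum. Arrays of the neighbouring times of differentiation up to 6 h, and arrays of cells given 50 µM cycloheximide, an inhibitor of protein synthesis, for 1 h before induction and then harvested 1 h after it, are used beside them. Each group had 3 harvests from separate plates of successive passages. The labels name no cells held in growth medium for the same hour, so the new medium, the lower serum, the other species of serum, the handling and the passage of time cannot be told apart. The p values rest on the spread between harvests within a group, pooled over all 48 arrays. They do not measure the spread of these 6 arrays alone.

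As background, cells that meet fresh medium or a new serum answer within minutes by transcribing immediate early genes, whose promoters are already open and need no new protein. Serum response factor, which reads signals from actin and from ERK kinase, CREB, which reads cyclic AMP and calcium, and YAP with its TEAD partners, which reads cell shape and growth factor lipids, drive many of these genes. The first products are transcription factors, secreted signals and inhibitors that shut the response down. Myoblasts use many of the same genes when they are stretched, injured or brought out of rest, and the muscle genes proper follow much later.

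RNA levels were read on Affymetrix MOE430v2 arrays as log2 values, in which a difference of 1 is a 2-fold change, and each of 18193 genes was represented by 1 probe set. The medians of the 6 arrays lay between 4.01 and 4.07, the lowest correlation of each array with the others of its group between 0.9875 and 0.994, and the 3′ minus 5′ difference of the Actb control probe sets between 0.24 and 0.37, with the groups overlapping. All 8 markers of myoblasts that were examined, Myod1 and Desmin among them, lay above the array median on all 6 arrays, as did 3 of 6 adipocyte markers (Lpl, Cebpa and Pparg), 4 of 8 leukocyte markers (Cd14, Cd3e, Csf1r and Laptm5) and 0 of 7 endothelial markers. No member of these lists passed the test, and the summed level of the leukocyte markers ran from 35.1 to 36.1 at 0 h and from 35.8 to 36.5 at 1 h. The part of other cell types in the results was not tested.

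After 1 h, 35 of the 18193 genes had changed at an adjusted p under 0.05 by limma, a share of 0.192%. Of these, 25 had risen (0.137% of all genes) and 10 had fallen (0.0550%). An unadjusted p under 0.05 was reached by 959 genes (5.27%). A change of at least 2-fold was seen in 15 risen and 4 fallen genes. The median difference over all genes was 0.02. In each of the 35 genes the 3 arrays of one group lay above the 3 of the other, which held for 1932 genes, or 10.6%, of all those tested. The risen genes were led by the nuclear receptor gene Nr4a1, the matrix protein genes Ccn2 and Ccn1, Fos, the endothelin gene Edn1 and Egr2. The fallen genes were led by Ddit4, an inhibitor of the growth kinase mTORC1, and Socs3, which damps cytokine signalling.

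**Figure D1:**
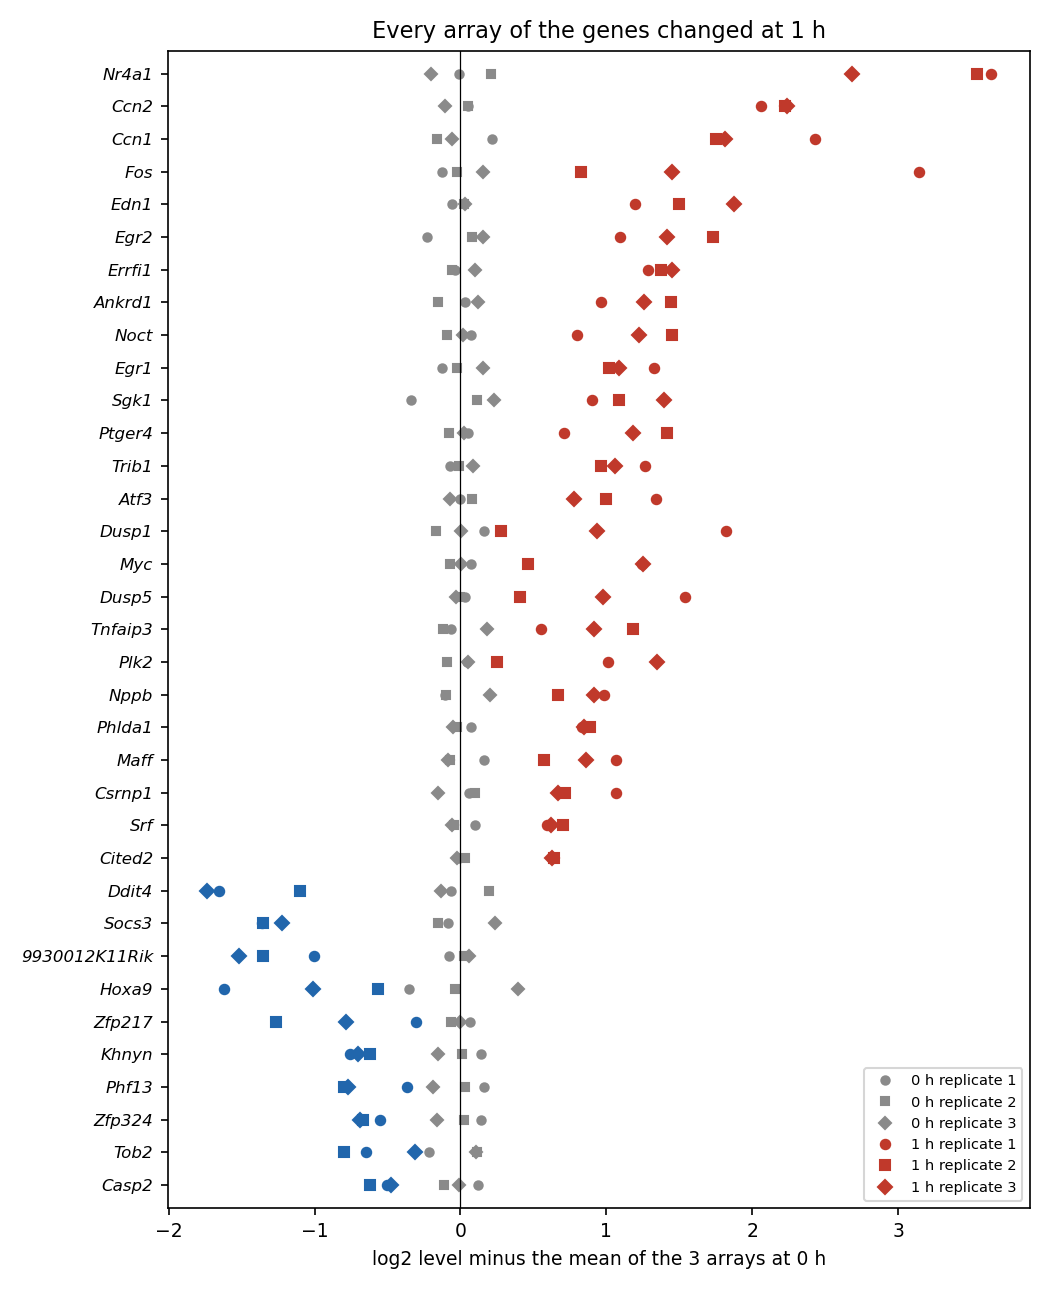
Each of the 6 arrays for the 35 genes that changed, with the level on the x axis given as log2 minus the mean of the 3 arrays at 0 h. Grey points are 0 h arrays, coloured points are 1 h arrays, and the point shape gives the replicate. The 3 coloured points lie to one side of the 3 grey points in each of the 35 genes. Nr4a1 moved most, by 3.29 on the mean, and the 1 h points of Fos, Dusp1 and Dusp5 are the most spread out.

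**Figure D2:**
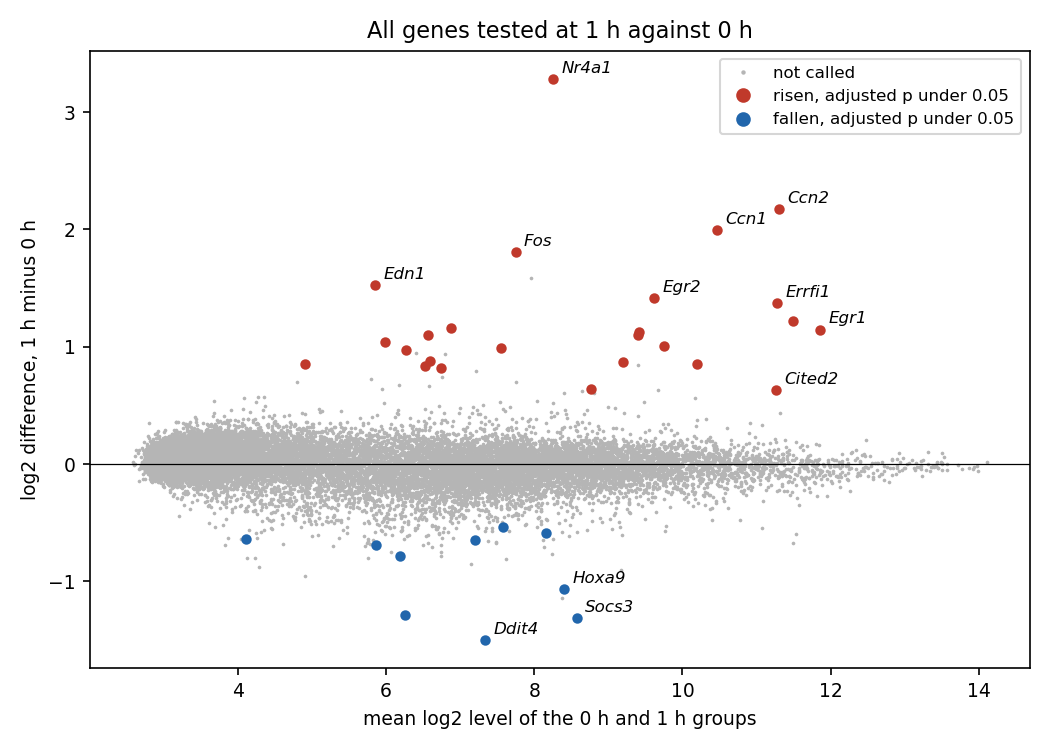
All 18193 genes, with the mean log2 level of the 0 h and 1 h groups on the x axis and the log2 difference, 1 h minus 0 h, on the y axis. Red points are the 25 risen genes, blue points the 10 fallen genes and grey points the genes that did not pass the test. Most genes lie close to the line at 0, and the called genes span low to high levels.

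Among the transcription factor genes, Nr4a1, an orphan nuclear receptor made within minutes of a stimulus, changed most of all. It read 6.61, 6.83 and 6.41 on the 0 h arrays and 10.25, 10.16 and 9.30 on the 1 h arrays. The lowest 1 h array thus stood far above the highest 0 h array. The difference was 3.29 (SE 0.34), a 9.75-fold rise, at an adjusted p of 1.04e-07. The related genes Egr1 and Egr2 encode zinc finger factors of the early growth response family. Egr2 read 8.68, 8.98 and 9.06 at 0 h and 10.00, 10.64 and 10.32 at 1 h, a rise of 1.41 (SE 0.22, adjusted p = 0.000234) with no overlap. A second Egr2 probe set rose by 1.28 (SE 0.27). Egr1 went from 11.28 ± 0.14 (SD, n = 3) to 12.43 ± 0.16, a rise of 1.15 (SE 0.15, adjusted p = 2.11e-05).

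Of the 14 genes listed for the Egr, Nr4a and Ier families, those 3 had risen, none had fallen, and the median difference was 0.42 against 0.02 for all genes. The other members did not pass. Egr3 differed by 0.86 (SE 0.32, adjusted p = 0.678) although its groups did not overlap, at 8.27 to 9.10 against 9.17 to 9.94. Ier2, whose product is a small nuclear protein, differed by 0.85 (SE 0.25, adjusted p = 0.36), with 10.75 on 1 h replicate 1 and 9.10 and 9.61 on the others. Ier5 differed by 0.36 (SE 0.10, adjusted p = 0.312), and its groups did not overlap.

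Fos, which pairs with Jun proteins to form the AP-1 factor, read 6.718, 6.822 and 6.998 at 0 h. On the 1 h arrays it read 9.99, 7.67 and 8.29. All were above the 0 h arrays, and replicate 1 stood apart from the others by more than 1.5. The rise was 1.80 (SE 0.29, 3.49-fold, adjusted p = 0.000414). Atf3, a stress-induced factor of the same leucine zipper class, rose by 1.04 (SE 0.23, adjusted p = 0.0317), and Maff, a small Maf protein, by 0.83 (SE 0.17, adjusted p = 0.0179). These were 3 of the 13 AP-1 and ATF3 factors measured, with 0 fallen and a median of 0.17.

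The partners and relatives of Fos did not pass the test. Jun, its main partner, read 10.09 ± 0.09 at 0 h and 10.18 ± 0.18 at 1 h, with a 0.95 confidence interval of the difference from -0.18 to 0.37. Junb read 8.19, 8.03 and 7.42 at 0 h and 9.01, 6.97 and 7.65 at 1 h. Its 1 h arrays lay on both sides of the 0 h arrays, and the interval of the difference, -0.84 to 0.84, was wide. Fosb lay below the array medians in both groups, at 3.15 ± 0.07 and 3.30 ± 0.08. Fosl2 differed by 0.30 (SE 0.13) and Fosl1 by 0.37 (SE 0.23), and neither passed.

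Other regulators of transcription rose too. Csrnp1, a nuclear protein named for its cysteine and serine content, rose by 0.82 (SE 0.14, adjusted p = 0.00141). Its other probe set differed by 0.265 (SE 0.135) and did not pass over all probe sets. Cited2, which competes with other factors for the coactivator p300, rose by 0.63 (SE 0.11, adjusted p = 0.0016), and its 1 h arrays lay within an SD of 0.0074. With the mean of its probe sets the difference was 0.73 and the call was lost (adjusted p = 0.332). Myc, which drives growth and the cell cycle, read 7.13, 6.98 and 7.05 at 0 h and 8.30, 7.51 and 8.31 at 1 h, a rise of 0.99 (SE 0.22, adjusted p = 0.0378). The call was lost when the cycloheximide arrays were left out of the fit (adjusted p = 0.0575). Myc was the 1 called member of 18 genes of the Myc network and the G1 cyclins, whose median was -0.07. Its partner Max differed by -0.37 (SE 0.19) and the cyclin gene Ccnd1 by -0.36 (SE 0.19, adjusted p = 0.976).

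A further group of risen genes encodes proteins of the matrix, secreted hormones or members of the list of SRF and YAP targets. Whether SRF or YAP controlled them here was not tested. Ccn2, the connective tissue growth factor, read 10.27, 10.27 and 10.11 at 0 h and 12.27, 12.44 and 12.46 at 1 h. The rise was 4.51-fold, at an adjusted p of 4.5e-07, and was nearly equal on the 3 arrays. Ccn1, its close relative and also a matricellular protein, read 9.68, 9.31 and 9.41 at 0 h and 11.90, 11.22 and 11.28 at 1 h. It rose 3.99-fold (SE 0.27 on the log2 scale, adjusted p = 2.63e-05). A second Ccn1 probe set rose by 2.21 (SE 0.38) and the remaining probe sets differed by 0.06 and -0.11.

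Edn1, which encodes the peptide hormone endothelin, read 5.03, 5.11 and 5.12 at 0 h and 6.29, 6.59 and 6.96 at 1 h. The difference of 1.52 (SE 0.13) had the smallest adjusted p of all genes, 2.24e-09. Nppb, the gene of the natriuretic peptide BNP, rose by 0.86 (SE 0.19, adjusted p = 0.0378). Ankrd1, a muscle ankyrin repeat protein that shuttles between sarcomere and nucleus, rose by 1.22 (SE 0.18, adjusted p = 8.17e-05), and its other probe set by 1.08 (SE 0.19). Srf, the gene of serum response factor itself, went from 8.44 ± 0.09 to 9.08 ± 0.06, a rise of 0.64 (SE 0.12, adjusted p = 0.00648). Its other probe set differed by 0.24 (SE 0.19), and with the mean of both the call was lost (adjusted p = 0.34). The call of Srf was also lost without probe sets of the kinds that can match other genes.

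Ccn2, Ccn1, Ankrd1 and Srf were the 4 called members of 25 SRF and YAP targets, none of which had fallen, and the median of that list was 0.07. Other members did not pass: Fhl2 differed by 0.44 (SE 0.17) and F3, the gene of tissue factor, by 0.39 (SE 0.22), and Ajuba by -0.46 (SE 0.16). Among 25 secreted growth factors and cytokines and the enzymes listed with them, Edn1 was the 1 called gene and the median was 0.07. In 5 of the 25, Edn1 among them, all 1 h arrays lay above the 0 h arrays, and in 0 all lay below. Over all genes these shares were 6.32% and 4.30%. The others of the 5 did not pass. Ptgs2, the inducible cyclooxygenase, read 6.27, 7.39 and 7.84 at 0 h and 8.04, 9.15 and 9.07 at 1 h, a difference of 1.59 (SE 0.46, adjusted p = 0.324). Ereg, an EGF receptor ligand, differed by 0.95 (SE 0.30, adjusted p = 0.412), and Hbegf, another such ligand, by 0.79 (SE 0.20, adjusted p = 0.142).

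Some inhibitors of signalling were among the risen genes. Errfi1, an inhibitor of the EGF receptor, rose by 1.37 (SE 0.22, adjusted p = 0.000414), from 10.59 ± 0.09 to 11.96 ± 0.08, and its other probe set rose by 1.21 (SE 0.24). Dusp1, a phosphatase that switches off MAP kinases, read 9.41, 9.08 and 9.25 at 0 h and 11.07, 9.52 and 10.18 at 1 h. Dusp5, a nuclear phosphatase of ERK, read 5.82, 5.79 and 5.76 at 0 h and 7.33, 6.19 and 6.77 at 1 h. In both, replicate 1 was the highest and replicate 2 the lowest of the 1 h arrays, as for Fos, and replicate 2 still stood above the 0 h arrays. Dusp1 rose by 1.01 (SE 0.20, adjusted p = 0.00951) and Dusp5 by 0.97 (SE 0.21, adjusted p = 0.0322). Without 1 h replicate 1 neither passed. These were the 3 called members of 18 MAP kinase feedback inhibitors, with 0 fallen and a median of 0.28. Rgs16, a brake on G protein signalling, came closest of the others, at 0.73 (SE 0.17, adjusted p = 0.0795).

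Trib1, a pseudokinase that directs proteins to degradation, rose by 1.10 (SE 0.16, adjusted p = 0.000125). Tnfaip3, the ubiquitin-editing inhibitor of NF-kB known as A20, rose by 0.88 (SE 0.16, adjusted p = 0.00291). It was the 1 called gene of 17 NF-kB targets and feedback genes, whose median was 0.02. The inhibitor Nfkbia differed by -0.27 (SE 0.15) and did not pass. Sgk1, a serum- and glucocorticoid-induced kinase, rose by 1.13 (SE 0.18, adjusted p = 0.00031). Ptger4, a prostaglandin E receptor that raises cyclic AMP, rose by 1.10 (SE 0.16, adjusted p = 8.17e-05). Plk2, a polo-like kinase, read 9.77, 9.01 and 10.11 at 1 h against 8.67 to 8.81 at 0 h and rose by 0.87 (SE 0.16, adjusted p = 0.00351). Phlda1, a pleckstrin homology protein, rose by 0.85 (SE 0.14, adjusted p = 0.00103) with an SD of 0.027 at 1 h. The other probe set differed by 0.18 (SE 0.12) for Trib1 and by 0.53 (SE 0.14) for Tnfaip3. It differed by 0.38 (SE 0.16) for Ptger4 and by 0.08 (SE 0.12) for Plk2. None of these passed over all probe sets, and those of Trib1, Ptger4 and Plk2 had means below the array medians in both groups.

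Noct, a deadenylase-related protein that also cycles with the clock in many tissues, rose by 1.16 (SE 0.17, adjusted p = 8.74e-05). It was the 1 called gene of 17 circadian clock genes, at a median of 0.03, in which Nr1d1 differed by 0.46 (SE 0.24) and Nfil3 by 0.32 (SE 0.24). Among 13 regulators of mRNA decay, Noct rose, Tob2, an antiproliferative adaptor of the deadenylase complex, fell, and the median was -0.04. Tob1, the relative of Tob2, differed by -0.76 (SE 0.19, adjusted p = 0.141), and Zfp36l1, which binds AU-rich elements, by -0.54 (SE 0.22). Of 15 CREB targets Nr4a1 and Dusp1 had risen, none had fallen, and the median was -0.01.

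The promoters of the risen genes were read from RefSeq (build GRCm38.p6, windows of 300 bases that end just past each transcript's start), in which 20 of the 25 risen and 9 of the 10 fallen genes were matched. Egr1, Ccn2, Myc, Trib1 and Phlda1 were the risen genes not matched, so their promoters were not read. The 5 below are matched risen genes. They are the 3 with the binding motif of serum response factor, the CArG box, and 2 of the 4 with that of CREB, the CRE. Capitals mark, on either strand, a CArG box, the CRE TGACGTCA, the AP-1 motif TGANTCA or the TEAD motif GGAATG. The intervals are chr17:46556113-46556412 on the minus strand for Srf, chr10:67537619-67537918 on the plus strand for Egr2, chr19:53528895-53529194 on the plus strand for Dusp5, chr13:110394794-110395093 on the plus strand for Plk2 and chr17:26508423-26508722 on the minus strand for Dusp1.
Srf: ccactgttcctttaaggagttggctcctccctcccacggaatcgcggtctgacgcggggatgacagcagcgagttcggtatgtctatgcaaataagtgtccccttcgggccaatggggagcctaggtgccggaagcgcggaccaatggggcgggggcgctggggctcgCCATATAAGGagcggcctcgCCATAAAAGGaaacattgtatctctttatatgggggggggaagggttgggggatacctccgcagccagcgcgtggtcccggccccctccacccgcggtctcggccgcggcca
Egr2: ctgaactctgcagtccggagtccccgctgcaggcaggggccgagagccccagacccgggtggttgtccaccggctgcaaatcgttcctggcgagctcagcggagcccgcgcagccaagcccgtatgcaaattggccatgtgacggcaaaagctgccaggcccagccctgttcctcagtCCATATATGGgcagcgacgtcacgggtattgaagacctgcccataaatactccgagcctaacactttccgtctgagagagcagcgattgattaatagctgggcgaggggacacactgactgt
Dusp5: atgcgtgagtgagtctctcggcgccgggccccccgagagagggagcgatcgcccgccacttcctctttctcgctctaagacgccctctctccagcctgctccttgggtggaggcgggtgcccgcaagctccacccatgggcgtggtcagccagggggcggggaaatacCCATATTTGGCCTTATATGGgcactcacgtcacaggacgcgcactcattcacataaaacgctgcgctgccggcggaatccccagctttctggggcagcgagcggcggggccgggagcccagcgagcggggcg
Plk2: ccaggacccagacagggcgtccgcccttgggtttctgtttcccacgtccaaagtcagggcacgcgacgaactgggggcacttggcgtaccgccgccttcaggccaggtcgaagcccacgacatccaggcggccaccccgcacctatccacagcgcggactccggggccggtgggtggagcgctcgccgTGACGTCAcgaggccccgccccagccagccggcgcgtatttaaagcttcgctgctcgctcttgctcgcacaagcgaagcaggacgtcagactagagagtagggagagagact
Dusp1: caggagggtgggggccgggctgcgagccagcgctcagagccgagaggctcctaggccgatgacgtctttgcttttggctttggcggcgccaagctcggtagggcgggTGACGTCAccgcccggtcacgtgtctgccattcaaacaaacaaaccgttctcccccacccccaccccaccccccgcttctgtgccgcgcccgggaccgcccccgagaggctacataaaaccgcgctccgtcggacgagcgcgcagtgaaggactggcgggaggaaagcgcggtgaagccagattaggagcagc

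In the Srf promoter the CArG boxes CCATATAAGG and CCATAAAAGG begin at -82 and -62 from the start. In Dusp5 CCATATTTGG and CCTTATATGG lie end to end from -82, and in Egr2 CCATATATGG begins at -72. A CArG box was found in 3 of the 20 matched risen genes and in 0 of the 9 fallen genes, in 1.81% of all genes of the table and in 1.63% of all promoters of this length. Some genes have several promoters, 36 in all for the 20 risen genes, and a gene was counted when any of its promoters held the motif. The CRE was found in 4 risen genes, Dusp1, Errfi1, Maff and Plk2, in 2.03% of all genes and in 1.79% of all promoters. The TEAD motif was in 9 risen genes, Ccn1, Ankrd1 and Edn1 among them, and in 1 fallen gene, Hoxa9, in 16.6% of all genes and in 14.7% of all promoters. AP-1 was in 2 risen genes, Csrnp1 and Tnfaip3 (8.97% of all genes and 7.81% of all promoters). The STAT motif TTCNNNGAA was in 3 risen genes and in 1 fallen gene, Socs3 (9.55% and 8.3%), and the FoxO motif GTAAACA in none (4.05% and 3.65%). Of the 36 promoters of the risen genes 6 held a CArG box, some of them overlapping windows of Egr2. The CRE was in 4 of the 36, the TEAD motif in 9, AP-1 in 2 and the STAT motif in 3. All genes together had 32851 promoters for 27025 genes, and a gene with more promoters had more chances to be counted. A match describes these letters in this window and is no measure of binding.

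The 10 fallen genes have no common family. Ddit4, the stress- and hormone-induced inhibitor of mTORC1 also called REDD1, read 8.02, 8.28 and 7.95 at 0 h and 6.42, 6.98 and 6.34 at 1 h. The highest 1 h array lay well below the lowest 0 h array, and the difference of -1.50 (SE 0.20, adjusted p = 1.74e-05) was a 2.83-fold fall. Socs3, which is induced by STAT3 and blocks JAK kinases, read 9.15, 9.08 and 9.47 at 0 h and 7.87, 7.87 and 8.01 at 1 h. It was lower by 2.49-fold (SE 0.24 on the log2 scale, adjusted p = 0.00228), and its other probe sets differed by -1.08 (SE 0.17) and -1.58 (SE 0.18), both past the test over all 45037 probe sets.

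Hoxa9, a homeobox gene of body pattern, read 8.58, 8.89 and 9.32 at 0 h and 7.31, 8.37 and 7.92 at 1 h. The groups were separated by a small gap, and the difference of -1.07 (SE 0.24) had an adjusted p of 0.0379. The call was lost with quantile normalization repeated (adjusted p = 0.0823) and with centring on housekeeping genes (adjusted p = 0.0919). The other Hoxa9 probe set differed by -0.50 (SE 0.16) and did not pass over all probe sets. Zfp217, a zinc finger protein of corepressor complexes, read 6.65, 6.51 and 6.58 at 0 h and 6.28, 5.32 and 5.80 at 1 h, with -0.78 (SE 0.17, adjusted p = 0.021), and it too was lost with quantile normalization repeated (adjusted p = 0.0828). Replicate 1 of the 1 h arrays lay close to the 0 h arrays in Zfp217 and farthest from them in Hoxa9.

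The other fallen genes moved less. Khnyn, a cofactor of the antiviral protein ZAP, differed by -0.69 (SE 0.14, adjusted p = 0.00759), while its other probe sets differed by 0.01 and -0.21. Phf13, a reader of methylated histone H3, fell by 0.64 (SE 0.12, adjusted p = 0.00467) and Zfp324, a zinc finger gene, by 0.64 (SE 0.14, adjusted p = 0.0357). Zfp324 was a low gene, at 4.42 ± 0.15 at 0 h and 3.79 ± 0.07 at 1 h, where it lay below the array medians. Tob2 fell by 0.59 (SE 0.13, adjusted p = 0.0378), and its other probe sets ran from -0.42 to 0.02. Casp2, an apoptotic protease, fell by 0.53 (SE 0.12, adjusted p = 0.0379). Centring on housekeeping genes ended the calls of Khnyn (adjusted p = 0.0545), Zfp324 (0.0506), Tob2 (0.137) and Casp2 (0.137). Khnyn was also lost with the mean of its probe sets (adjusted p = 0.528), and Casp2 with trend and robust moderation (adjusted p = 0.0702). Tob2 was also lost with quantile normalization repeated (adjusted p = 0.18), with the mean of its probe sets (0.102) and without probe sets of the kinds that can match other genes (0.777). The remaining fallen gene carries a clone name.

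Of 17 SOCS and STAT3 targets Socs3 had fallen and none had risen, with a median of -0.15, and Pim3, a kinase of that list, differed by 0.56 (SE 0.14, adjusted p = 0.119). Of 22 FoxO targets and growth factor withdrawal genes Ddit4 had fallen and Cited2 had risen, with a median of -0.11. In that list 7 genes had all 1 h arrays below the 0 h arrays and 1 had all above, where over all genes 4.30% lay below and 6.32% above. Sesn3, another brake on mTORC1, differed by -0.65 (SE 0.20, adjusted p = 0.409) and Bcl6, a transcriptional repressor, by 0.49 (SE 0.19). In the list for unfolded proteins and amino acid shortage, with 18 genes, Ddit4 was the 1 called gene, at a median of -0.04, and Atf4, its central factor, differed by 0.17 (SE 0.12). Of 16 Gadd45 and p53 targets Plk2 had risen and Casp2 had fallen, at a median of -0.06, with Gadd45b at 0.70 (SE 0.22, adjusted p = 0.412).

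Of 29 Hox genes Hoxa9 was the called one, and the median was 0.00. Hoxc8 differed by -0.80 (SE 0.19, adjusted p = 0.0777) and Hoxa10 by -0.61 (SE 0.19). No gene of 12 Kruppel-like factors passed, at a median of 0.09, though Klf10 differed by -0.81 (SE 0.19, adjusted p = 0.0795), Klf3 by -0.56 (SE 0.18) and Klf2 by 0.54 (SE 0.16). Of these 12 genes 2 had all 1 h arrays above and 2 all below the 0 h arrays, where the shares over all genes were 6.32% and 4.30%.

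The genes that hold back or drive muscle differentiation did not pass at 1 h in the main fit. Of 21 Id, Notch and TGF-beta response genes none was called, the median was -0.13, and 5 had all 1 h arrays below the 0 h arrays with 0 above. Over all genes 4.30% lay below and 6.32% above. Id1, which binds and silences MyoD's partners, read 10.00, 9.69 and 9.18 at 0 h and 9.72, 8.20 and 8.24 at 1 h. Replicate 1 of the 1 h arrays thus lay among the 0 h arrays, and the difference of -0.90 (SE 0.34) had an adjusted p of 0.69. Id3 read 11.95, 11.97 and 11.56 at 0 h and 11.85, 10.90 and 10.94 at 1 h, in the same order (-0.60, SE 0.29). In both genes each 1 h array lay below the 0 h array of the same number. An alternative fit that took the replicate number into account called Id1. Hes1, a Notch target, differed by -0.58 (SE 0.19, adjusted p = 0.523) and Smad7, a TGF-beta brake, by -0.50 (SE 0.15, adjusted p = 0.4).

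None of 10 myogenic transcription factors passed, at a median of -0.12. Myod1 read 10.44, 10.07 and 9.64 at 0 h and 10.33, 9.85 and 9.65 at 1 h, with an interval of the difference from -0.66 to 0.46. Myog, the factor of terminal differentiation, read 11.42, 9.32 and 9.71 at 0 h and 11.48, 8.63 and 9.60 at 1 h. Replicate 1 was high and replicate 2 low in both groups, so the spread within a group exceeded any difference between them. Six4, a homeobox factor, differed by -0.58 (SE 0.17, adjusted p = 0.357) and Myf5 by -0.51 (SE 0.35). None of 28 sarcomere genes passed, at a median of 0.14 with a range from -0.35 to 0.37.

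None passed in the remaining lists. Their medians were -0.11 for 23 DNA replication and mitosis genes, 0.04 for 11 heat shock genes, 0.03 for 14 interferon response genes, -0.06 for 13 genes of cholesterol synthesis and uptake, 0.02 for 6 adipocyte markers, 0.06 for 8 leukocyte markers, 0.04 for 7 endothelial markers, -0.05 for 8 myoblast markers and -0.04 for 11 housekeeping genes.

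**Figure D3:**
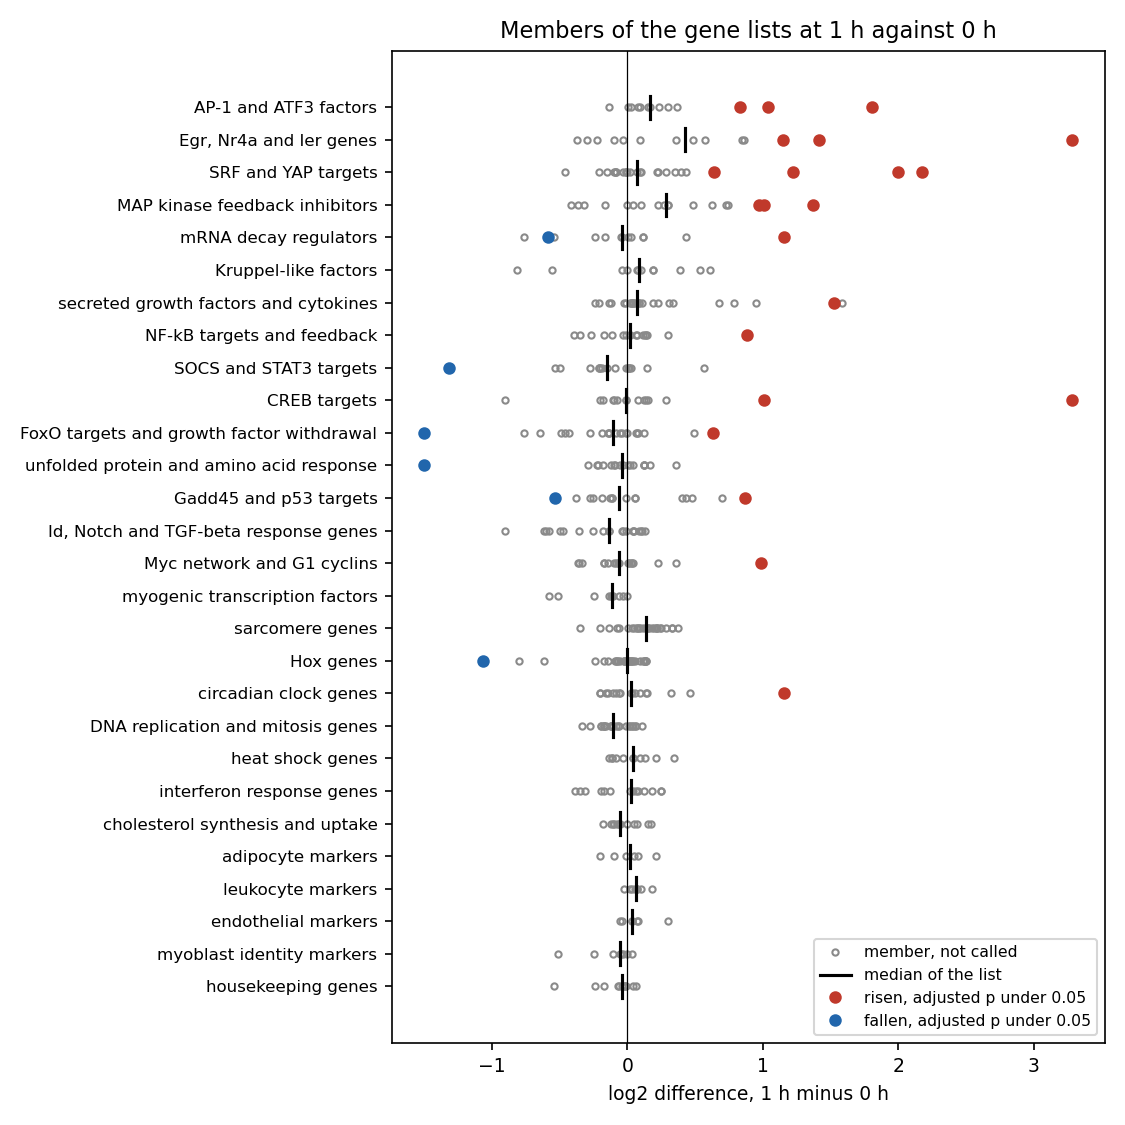
The log2 difference, 1 h minus 0 h, on the x axis for every measured member of the gene lists. Filled red and blue points are risen and fallen genes at an adjusted p under 0.05, open points are members that did not pass, and the bar is the median of the list. The medians lie between -0.15 and 0.42, and no list holds more than 4 called genes. Of the called genes, Nr4a1, Dusp1, Ddit4 and Noct appear in more than 1 list.

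Just outside the threshold on the rising side, beside Rgs16, Pim3 and Hbegf, stood Egfl6, a secreted EGF-like protein, at 0.35 (SE 0.09, adjusted p = 0.119), and Mcl1, a survival protein, at 0.34 (SE 0.09, adjusted p = 0.127). On the falling side, beside Hoxc8, Klf10 and Tob1, stood Zfp82, a zinc finger gene, at -0.88 (SE 0.21, adjusted p = 0.0609), and Mylip, a ubiquitin ligase of lipoprotein receptors, at -0.61 (SE 0.15, adjusted p = 0.124). All 10 of these genes, which were picked by their small p, had groups that did not overlap, as did 10.6% of all genes.

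The spread between arrays was larger at 1 h. Over the 25 risen genes the median SD was 0.0915 at 0 h and 0.281 at 1 h, over the 10 fallen genes 0.163 and 0.245, and over all genes 0.126 and 0.153. The highest of the 1 h arrays was replicate 1 in 11 risen genes, replicate 2 in 8 and replicate 3 in 6. Of the 35 calls, 19 held when any 1 of the 6 arrays was left out. With the 6 arrays alone in the fit, 12 genes passed, of which 11 were among the 35. Of those 19, Fos, Egr2, Noct, Sgk1, Ptger4, Csrnp1, Cited2 and Ddit4 did not pass in that fit. Their calls thus depended on the arrays of the other groups.

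The other 16 calls were lost when some array was left out, with adjusted p values that then ran from 0.0521 to 0.551. Casp2 was lost without any 1 of the 6 arrays. Atf3 was lost without any array but 1 h replicate 3, Myc and Dusp5 without any but 1 h replicate 2, Zfp217 without any but 1 h replicate 1 and Zfp324 without any but 0 h replicate 3. Loss of replicate 1 or 3 at 1 h, or of replicate 2 or 3 at 0 h, ended the calls of Maff and of Hoxa9, which reached 0.551. For Nppb these were replicate 1 or 3 at 1 h and replicate 1 or 2 at 0 h. For Phf13 they were replicate 2 or 3 at 1 h and replicate 1 or 2 at 0 h, and for Tob2 replicate 1 or 2 at 1 h and replicate 2 or 3 at 0 h. For Dusp1 they were replicate 1 at 1 h and replicate 2 or 3 at 0 h, for Srf replicate 2 at 1 h and replicate 2 or 3 at 0 h, and for Khnyn replicate 1 at 1 h and replicate 1 or 2 at 0 h. Plk2 was lost without replicate 1 or 3 at 1 h or replicate 2 at 0 h, and Tnfaip3 without replicate 2 of either group.

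Of the 15 called genes with more than 1 probe set, 19 of the 22 other probe sets had the same sign and 6 also passed over all probe sets. The probe sets used for Ccn1, Socs3, Tob2 and Srf are of the kinds that can match transcripts of other genes, and those for Edn1, Noct and Myc of the kind that matches several transcripts of 1 gene.

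The neighbouring times were set beside these values. The comparisons of 1 h with 0.5 h and with 3 h share the 1 h arrays with the comparison that picked the 35 genes, so counts of these genes in them are a description. Among the times from 0 h to 3 h the mean was highest at 0.5 h in 2 of the 25 risen genes, at 1 h in 18 of them and at 1.5 h in 5 of them. In the 10 fallen genes the mean was lowest at 1 h in 8 and at 1.5 h in 2. Fos and Dusp1 were the 2 genes that were highest at 0.5 h. The mean of Fos was 6.85 at the start, 9.70 ± 0.37 after 0.5 h, 8.65 ± 1.20 after 1 h and back to 6.63 ± 0.23 by 1.5 h. The 5 that were highest at 1.5 h were Noct, Tnfaip3, Plk2, Nppb and Srf. Cells in growth medium 24 h before induction had a mean of 6.56 for Nr4a1, close to the 6.62 at 0 h, but 7.07 ± 0.46 for Noct against 6.30 ± 0.08 at 0 h and 7.46 ± 0.33 at 1 h. From that time to 0 h the differences of the 25 risen genes ran from -0.77 (Noct) to 0.96 (Egr2), with a median of 0.25. Srf differed by 0.68 (SE 0.12), near its rise of 0.64 at 1 h. Those of the 10 fallen genes ran from -0.55 (Ddit4) to 0.83 (Socs3), with a median of 0.07. No test was made of this step.

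Between 0.5 h and 1 h, 12 genes changed (0.0660%), 7 upward (0.0385%) and 5 downward (0.0275%). Of the 25 risen genes 5 were higher at 1 h than at 0.5 h: Edn1 by 1.18 (SE 0.13), Ankrd1 by 1.07 (SE 0.18), Ptger4 by 0.88 (SE 0.16), Noct by 0.87 (SE 0.17) and Tnfaip3 by 0.83 (SE 0.16). The mean of Edn1 was 5.09 ± 0.05 at 0 h, 5.43 ± 0.07 at 0.5 h and 6.61 ± 0.34 at 1 h, with no overlap between these groups. Of the 10 fallen genes 3 were lower at 1 h than at 0.5 h, with Ddit4 at -1.10 (SE 0.20) and Zfp217 at -0.80 (SE 0.17). Zfp36, the AU-rich element binding protein tristetraprolin, fell by 1.26 (SE 0.22, adjusted p = 0.00759) from 0.5 h to 1 h and differed from 0 h by 0.11 (SE 0.22). The others were Tmem186 and Smpd3, which rose, and Lncppara, which fell. With only the 6 arrays of these times in the fit, limma called 0 genes and 422 had an unadjusted p under 0.05.

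Between 1 h and 3 h 200 genes changed (1.10%), 115 upward (0.632%) and 85 downward (0.467%), and 20 of the 25 risen genes were lower at 3 h. The count of all calls was 17 with only the 6 arrays of these times in the fit, 78 without 3 h replicate 1, 125 without 1 h replicate 2 and 2814 with centring on housekeeping genes. At 3 h the mean of Nr4a1 was 6.93 ± 0.11 and that of Fos 7.11 ± 0.13, close to the 6.62 and 6.85 at 0 h. Nr4a1 fell by 2.97 (SE 0.34) from 1 h to 3 h, Fos by 1.54 (SE 0.29), Sgk1 by 1.51 (SE 0.18) and Egr1 by 1.30 (SE 0.15). The 5 that did not pass were Noct, Tnfaip3, Plk2, Nppb and Srf, and Tnfaip3 differed by -0.21 (SE 0.16). Of the 10 fallen genes 7 rose again, among them Ddit4 by 1.24 (SE 0.20), Hoxa9 by 1.23 (SE 0.24) and Socs3 by 0.94 (SE 0.24). Centred on housekeeping genes, the split of all calls between 1 h and 3 h turned from 57.5% upward to 3.16% upward, and with quantile normalization repeated it was 40.5%.

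**Figure D4:**
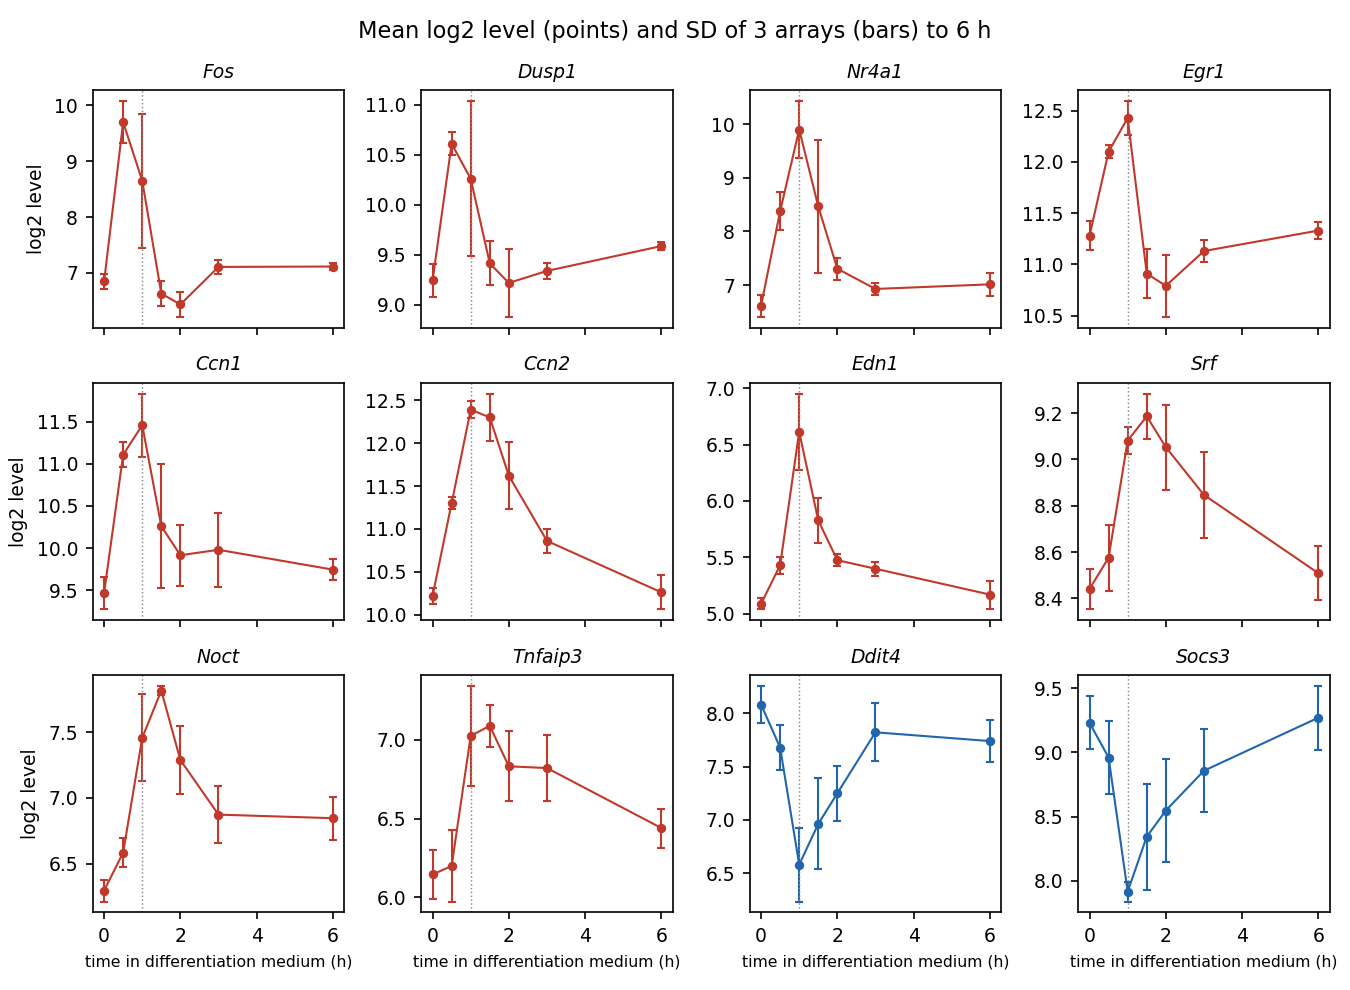
Mean log2 level (points) with the SD of 3 arrays (bars) on the y axes against hours in differentiation medium up to 6 h, for 10 risen genes in red and 2 fallen genes in blue. The dotted line marks 1 h, and each panel has its own y range. Fos and Dusp1 peak at 0.5 h, Nr4a1, Egr1, Ccn1, Ccn2 and Edn1 at 1 h, Srf, Noct and Tnfaip3 at 1.5 h, and Ddit4 and Socs3 are lowest at 1 h.

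Cells that received cycloheximide were set against the same untreated 1 h arrays. No label describes cells with the drug at 0 h, so a change made by the drug before the medium was changed and one made after it cannot be told apart. The drug-treated arrays had higher medians (4.20 to 4.24, against at most 4.16 on the other arrays), and 308 probe sets read the same value to the last digit on all 3 of them, where none did on the untreated 0 h or 1 h arrays. Values are therefore given both as deposited and with all arrays quantile normalized again. As deposited, 4470 genes differed (24.6%), 4394 of them higher with the drug. After quantile normalization 1234 differed (6.78%), 805 higher (4.42%) and 429 lower (2.36%).

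Many of the risen genes stood higher with cycloheximide than without it. After quantile normalization 14 of the 25 were higher, 1 was lower and 10 did not pass, and as deposited these counts were 16, 1 and 8. These counts too rest on the 1 h arrays that picked the genes. Fos read 11.55, 11.12 and 11.09 with the drug against 9.99, 7.67 and 8.36 without it after quantile normalization, a difference of 2.58 (SE 0.29). The treated arrays were all above the untreated ones and closer together. Dusp1 was higher by 2.17 (SE 0.20), Atf3 by 1.95 (SE 0.22), Sgk1 by 1.89 (SE 0.18), Edn1 by 1.65 (SE 0.14) and Csrnp1 by 1.62 (SE 0.15). Nr4a1 read 10.46, 9.82 and 9.47 with the drug and 10.26, 10.20 and 9.36 without it, a difference of -0.03 (SE 0.33), and Srf, Cited2, Ankrd1 and Egr2 did not pass on either scale.

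Ptger4 was the 1 risen gene that was lower with the drug. After quantile normalization it read 9.15, 9.19 and 9.45 with the drug, between 8.82 to 8.90 at 0 h and 9.58 to 10.31 at 1 h. The difference was -0.73 (SE 0.17, adjusted p = 0.00472), and -0.50 (SE 0.16, adjusted p = 0.0194) as deposited.

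None of the 10 fallen genes was lower with the drug. After quantile normalization 6 were higher and 4 did not pass, against 9 and 1 as deposited. Over all genes 4.42% were higher after quantile normalization and 24.2% as deposited. The fallen genes were picked for low values on the same untreated 1 h arrays, which favours a higher reading with the drug. Ddit4 is counted among the higher genes on both scales, but as deposited it had the identical value of 9.02 on all 3 drug-treated arrays, so no difference or error is given for it. Socs3 was higher by 2.14 (SE 0.25) and stood above its 0 h level, at 10.10 against 9.26. Casp2 (0.87, SE 0.11), Zfp324 (1.17, SE 0.15) and Khnyn (0.58, SE 0.13) were higher too, while Hoxa9, Zfp217, Phf13 and Tob2 did not pass. The means with the drug also stood above 0 h for Casp2 (8.225 against 7.85), Zfp324 (4.97 against 4.46) and the clone-named gene (7.52 against 6.89). That of Khnyn did not (6.15 against 6.19).

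Some genes that did not pass at 1 h against 0 h also read higher with the drug. After quantile normalization Jun had a mean of 11.58 ± 0.19 with it against 10.21 ± 0.16 without, Junb 9.56 ± 0.75 against 7.91 ± 1.06, and Id1 11.52 ± 0.33 against 8.75 ± 0.86. The arrays of Junb overlapped, and those of Jun and Id1 did not. The 3 treated arrays of Id1 lay above its 0 h arrays, which had a mean of 9.64 ± 0.40.

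**Figure D5:**
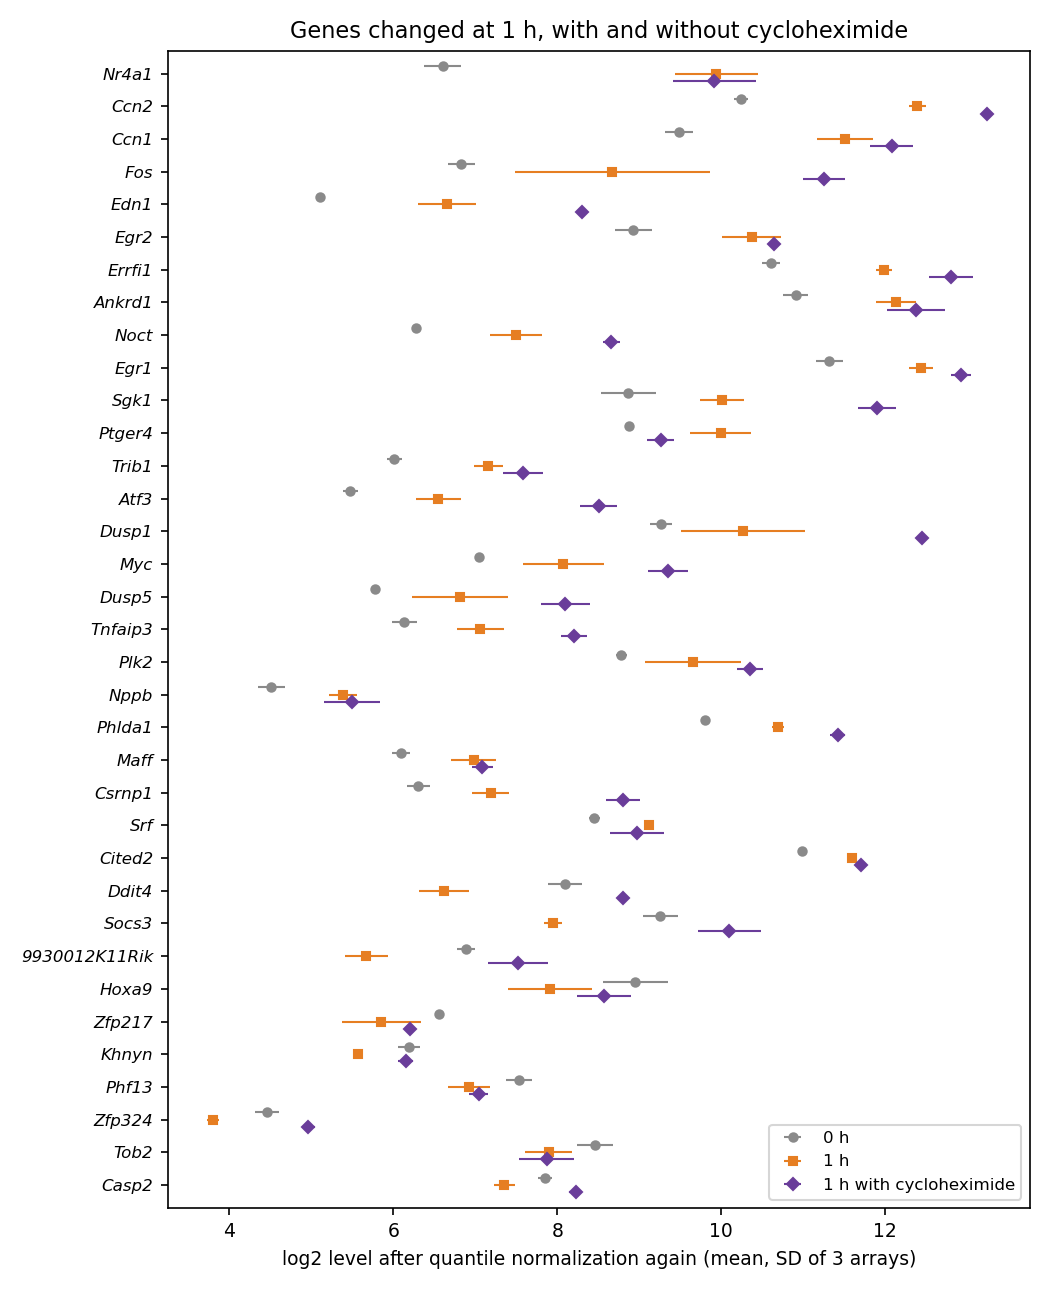
Mean log2 level after quantile normalization again (x axis), with the SD of 3 arrays as bars, for the 35 genes at 0 h (grey), 1 h (orange) and 1 h with cycloheximide (purple). The purple points lie beyond the orange ones in the direction of the rise for Fos, Dusp1, Atf3 and Sgk1, and between grey and orange for Ptger4. For Socs3, and also for Casp2, Zfp324 and the clone-named gene, the purple point lies above the grey one, although these genes fell without the drug. The purple point of Ddit4 comes from deposited values that were identical on the 3 arrays.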

How the data were processed

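Gene expression in C2C12 cells was measured on 48 Affymetrix MOE430v2 arrays in 16 groups of 3, labelled from 5 µg of total RNA. The authors deposited log2 values made with RMA, per the submitters' processing notes. RMA corrects background, normalizes probe intensities across arrays and reduces them to 1 value for each probe set, so small differences of low genes are compressed. Its version, and whether the cycloheximide arrays were processed together with the others, are not given in the sources used here. Control probe sets and those with several symbols were left out, and a gene's probe set with the highest mean over all arrays was used, chosen from 34945 probe sets.

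A linear model with a mean for each group was fitted over all 48 arrays with limma 3.58.1 in R 4.3.3 (eBayes, 32 residual degrees of freedom, two-sided tests). P values were adjusted by Benjamini-Hochberg over 18193 genes, and genes were called at an adjusted p under 0.05. Intervals are at the 0.95 level. The fit was tested on simulated data. With 3 arrays a group, their number limits the precision. The comparisons were 1 h against 0 h, 1 h against 0.5 h, 3 h against 1 h, and cycloheximide against untreated cells at 1 h. Same-numbered arrays of the 0 h and 1 h groups did not all deviate together, so the replicate numbers were not used as pairs.

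Called genes with an ordinary symbol are named. Those of largest change (6 risen and 4 fallen) have every array's value, and others are named as the members of a list with the smallest p (up to 3), as the 5 risen and 5 fallen genes nearest the threshold, or from a set of early and myogenic genes. Gene lists and members were chosen with earlier results of these data known. The alternatives were the arrays in the fit, the replicate block, moderation, normalization, centring on housekeeping genes, the probe set and a filter on low values. The genes called at 1 h against 0.5 h that fall outside this rule were named after their values were seen.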

Additional observations from a re-analysis of the deposited data

How the results depend on the processing

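With only the 6 arrays of the groups in the fit, limma called 12 genes at 1 h against 0 h (882 at an unadjusted p under 0.05), 0 at 1 h against 0.5 h (422 unadjusted), 17 at 3 h against 1 h and 2410 for cycloheximide. Blocking on the replicate number (replicate block) gave counts of 61, 26 and 584 (the first, 55.7% of them risen, including all 35 genes) and 6006 for cycloheximide. Not every array of the 1 h group correlated best with its own number, as 1 h replicate 2 followed 0 h replicate 3 (0.314) more than 0 h replicate 2 (-0.0253). Replicates 1 and 3 of the 1 h group did correlate best with their own numbers, at 0.651 and 0.536. Leaving out 1 array gave 19 to 31 genes at 1 h against 0 h (19 without 0 h replicate 2), 1 to 12 at 1 h against 0.5 h, 78 to 150 at 3 h against 1 h and 3236 to 4210 for cycloheximide. Centring on the 11 housekeeping genes moved the median gene at 1 h from 0.0154 to 0.114 and gave 43 genes, of which 88.4% had risen against 71.4%. It gave 2814 genes at 3 h against 1 h and 1513 for cycloheximide, where quantile normalization again gave 1234. Repeated quantile normalization, trend and robust moderation, the mean of probe sets and a filter on low values kept the count at 1 h against 0 h between 33 and 36. The causes were not tested. Of the 35 calls 11 held under every alternative and none of the named differences changed sign while called. Of the values of named genes under alternatives, 553 stayed on their side of the threshold, 105 lost the call and 1 gained it (Id1 under the block, adjusted p = 0.0218). The number of arrays limits the precision, and leaving out genes of low signal gave 36 genes.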
